A study of Mus musculus with 2 samples.

Results

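The genes described are those of the ribosomal proteins of the mouse, both of the ribosome of the cytosol and of the smaller ribosome inside mitochondria. They were chosen by symbol alone. A symbol had to begin with Rpl or Rps and a digit, or be Rpsa, Rplp0, Rplp1 or Rplp2, for the cytosolic set (the Rps6k kinases were left out), or begin with Mrpl or Mrps and a digit for the mitochondrial set. The rule found 168 genes, 90 cytosolic and 78 mitochondrial, among 16774 named genes measured on the arrays. The cytosolic set held 46 canonical proteins of the large (60S) subunit, 31 of the small (40S) subunit, 8 paralogues of such proteins, 4 retrocopies or pseudogenes, and Rps19bp1, a binding partner of Rps19 that is no part of the ribosome. The mitochondrial set held 49 genes with an Mrpl symbol (large, 39S, subunit) and 29 with an Mrps symbol (small, 28S, subunit). No canonical cytosolic protein and no protein-coding Mrpl or Mrps gene of the gene table lacked a measured probe.

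Both groups were spleen tissue of female mice, harvested on day 19 after the first injection, and the RNA of each came from 5 pooled spleens. The control group had received PBS (phosphate-buffered saline) and the other group silica, named SiO2-remodelled spleen in the labels. Each pool was read on 1 one-colour array. Strain, age and genotype are not given in the sources used here. RNA was made with a blood kit that lyses red and white cells separately, and globin message was depleted from both pools. There was 1 array per group, so no test, p-value or error between animals can be given, and every difference below describes these pools. A difference is the log2 signal in SiO2 less the log2 signal in PBS, after the 75th percentile of the array was taken off each, and is given for the brightest probe of a gene. Sizes of 1.5-fold (0.585 on the log2 scale) and 2-fold serve as marks. In bulk tissue, fewer cells of a type and less RNA per cell cannot be told apart.

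A ribosome is built from ribosomal RNA and, for most of its proteins, a single copy of each, so the genes of these proteins are among the most evenly and highly expressed of a cell. Messages of the cytosolic ribosomal proteins, and of several translation factors, begin with a run of pyrimidines at the cap, the 5′ terminal oligopyrimidine (TOP) motif, through which mTOR and the binding protein Larp1 set how much of them is translated. Mitochondrial ribosomal proteins are also made from nuclear genes, are imported, and serve the translation of the few respiratory chain subunits that mitochondrial DNA encodes. In the spleen, activated lymphocytes and red cell precursors are known for a high demand for ribosomes.

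The annotated starts of the genes show a sequence feature that the choice by symbol did not use. RefSeq promoter entries (build GRCm38.p6) were matched by symbol for 57 of 77 canonical cytosolic genes and 69 of 78 mitochondrial genes. In the window from 10 bases before to 20 bases after an annotated start, a run of at least 8 pyrimidines (C or T, on the strand of the gene) lay in 23 cytosolic genes (40.4%) and in 6 mitochondrial genes (8.70%), against 13.0% of all 27025 genes with an entry. A gene was counted if any of its annotated starts had the run. The number of starts per gene was not compared between the lists, and many of the 27025 genes are not protein coding. The windows below show such runs in capitals for cytosolic members described further on, and for Mrpl44, one of the 6 mitochondrial genes that have one. The cytosolic windows shown were picked from the genes with a run. No run was found for 34 of the 57, among them Rps3a1, Rpl10a, Rpl9, Rps13, Rplp0 and Rpsa. Where a gene has several annotated starts, a start with a run was shown if it had one. The windows of Mrpl18 and Mrpl28, the mitochondrial members with the largest higher values, have none and are in lower case throughout. They lie at chr7:141447641-141447670 (plus strand) for Rplp2, chr14:18270967-18270996 (minus) for Rpl15, chr7:4792955-4792984 (plus) for Rpl28, chr3:90213629-90213658 (minus) for Rps27, chr14:24490668-24490697 (plus) for Rps24, chr1:79776008-79776037 (plus) for Mrpl44, chr17:12916072-12916101 (minus) for Mrpl18 and chr17:26123493-26123522 (plus) for Mrpl28.
Rplp2: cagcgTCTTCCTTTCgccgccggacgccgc
Rpl15: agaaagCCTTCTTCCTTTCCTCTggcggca
Rpl28: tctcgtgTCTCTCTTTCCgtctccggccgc
Rps27: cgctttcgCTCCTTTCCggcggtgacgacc
Rps24: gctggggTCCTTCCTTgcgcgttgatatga
Mrpl44: CTCCCTCTTCggtgtcctccagcgttcagg
Mrpl18: agctttacccacagttaacatggctgcgac
Mrpl28: cacgttcggtgacgctattccggttccggg

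Both sets shared another letter pattern. The 7-letter core CCGGAAG, bound by ETS factors such as GABP, was searched on both strands of the 300 bases from 250 before to 50 after a start. It lay in 24 of 57 cytosolic genes (42.1%) and 26 of 69 mitochondrial genes (37.7%), against 9.93% of all genes with an entry, many of which are not protein coding. Of the other patterns, also searched on both strands, the YY1 pattern AAGATGGC lay in 8.77% of the cytosolic, 17.4% of the mitochondrial and 3.19% of all genes, and the pattern of NRF1 in 8.77%, 18.8% and 5.19%. The TATA box TATAAA lay in 10.5%, 7.25% and 15.7%, and the GC box GGGCGG in 61.4%, 49.3% and 38.2%. Each pattern was counted on its own, whether or not it overlapped another, and a gene counted if any of its annotated starts had it. A match is a string of letters and not a shown binding site. The 100 bases upstream of the start are shown for a cytosolic and a mitochondrial member, with the core in capitals on either strand, at chr3:86142669-86142768 (minus strand) for Rps3a1 and chr6:83109008-83109107 (plus strand) for Mrpl53.
Rps3a1: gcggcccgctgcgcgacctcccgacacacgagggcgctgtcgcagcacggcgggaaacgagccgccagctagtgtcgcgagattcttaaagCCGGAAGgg
Mrpl53: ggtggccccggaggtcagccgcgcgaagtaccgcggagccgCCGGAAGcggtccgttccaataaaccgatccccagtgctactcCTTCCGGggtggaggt

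No member of either set differed 2-fold between the pools, whereas 10.3% of all named genes did, 6.62% being higher and 3.69% lower with SiO2. At 1.5-fold, 1 of 168 members was higher (Mrpl18) and 1 lower (Mrpl19), beside 16.0% of all named genes higher and 12.3% lower, 28.3% in all. The median log2 difference was 0.15 over the 90 cytosolic genes and 0.06 over the 78 mitochondrial genes, and 0.03 over all named genes. Of the cytosolic genes, 75 lay above 0 and 15 below, and of the mitochondrial genes 46 above and 32 below, where 52.3% of all genes lay above 0. The sign of the cytosolic median rests on the scaling. It was -0.00152 after quantile normalization, with 44 of 90 genes above 0, and -0.00102 in the authors' deposited values, with 33 of the 69 genes found there. Relative to the median of all named genes, the cytosolic median was 0.12 higher as scaled here and -0.07 under normexp background correction, so no direction is given for the set.

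**Figure D1:**
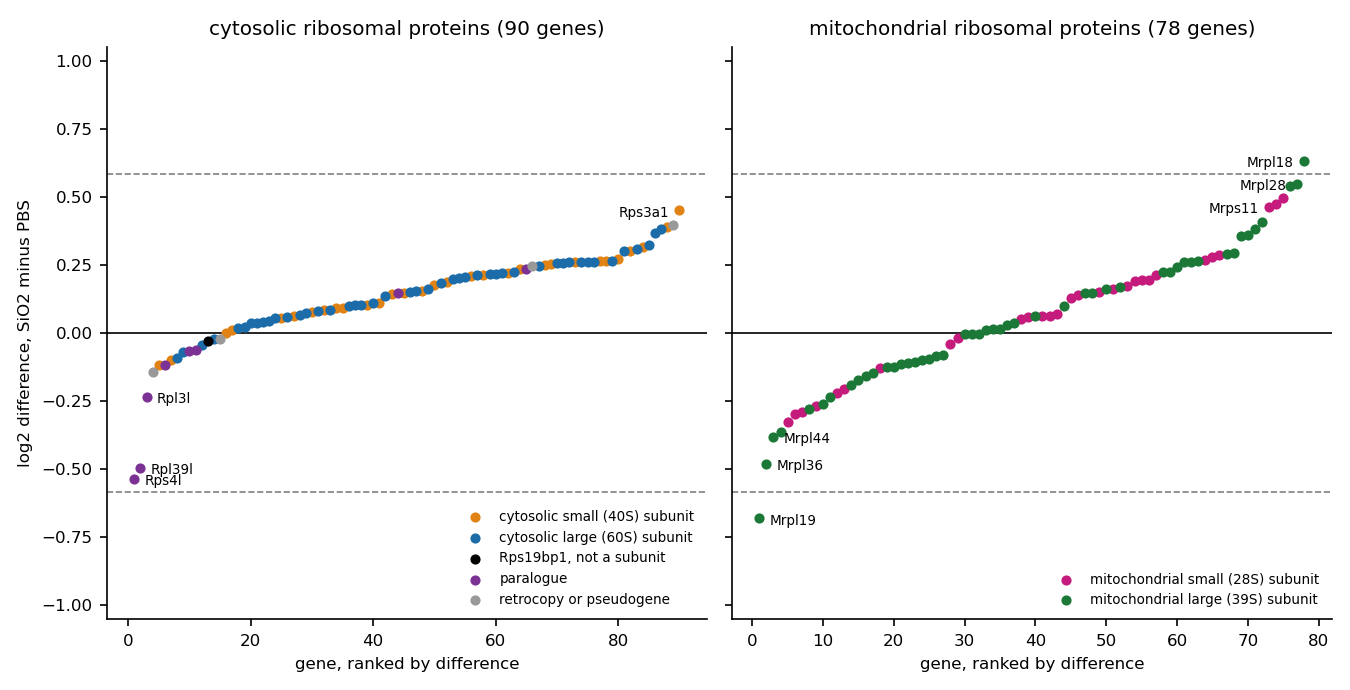
Log2 difference (SiO2 minus PBS, y axis) of each of 90 cytosolic (left) and 78 mitochondrial (right) ribosomal protein genes, ranked from lowest to highest along the x axis and coloured by subunit or kind, with dashed lines at 1.5-fold. Points are the brightest probe of each gene on 1 array per group; only Mrpl18 and Mrpl19 lie outside the dashed lines, and Mrpl21 is drawn at its bound.

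Before scaling, the SiO2 array was dimmer for most genes, though not for all, with a 75th percentile signal of 469 against 670 for PBS. This is a gap of 0.51 on the log2 scale. Unscaled signals of canonical cytosolic genes ran from 3627 to 73402 on the PBS array, with a median of 33195, and from 2544 to 57179 on the SiO2 array, with a median of 26472. Those of mitochondrial genes ran from 11.3 to 14743, median 2268, on the PBS array and from 4.76 to 9650, median 1715, on the SiO2 array. Only 3 of 168 members, Mrpl18, Mrpl28 and Mrpl53, had a higher unscaled signal in the SiO2 pool. Because of the gap, a member had to lie above 0.51 as scaled to do so. Of all named genes, 16.0% were at least 1.5-fold higher as scaled, which is past that value. All members but Mrpl21 were well above background on both arrays. Spleen markers (Nkx2-3, Tlx1, Spic, Vcam1, Cd79a, Cd3e and Cd5l) were likewise above background on both arrays, and all 7 were lower with SiO2, with a median of -0.50 and Spic and Cd5l at least 2-fold lower.

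**Figure D2:**
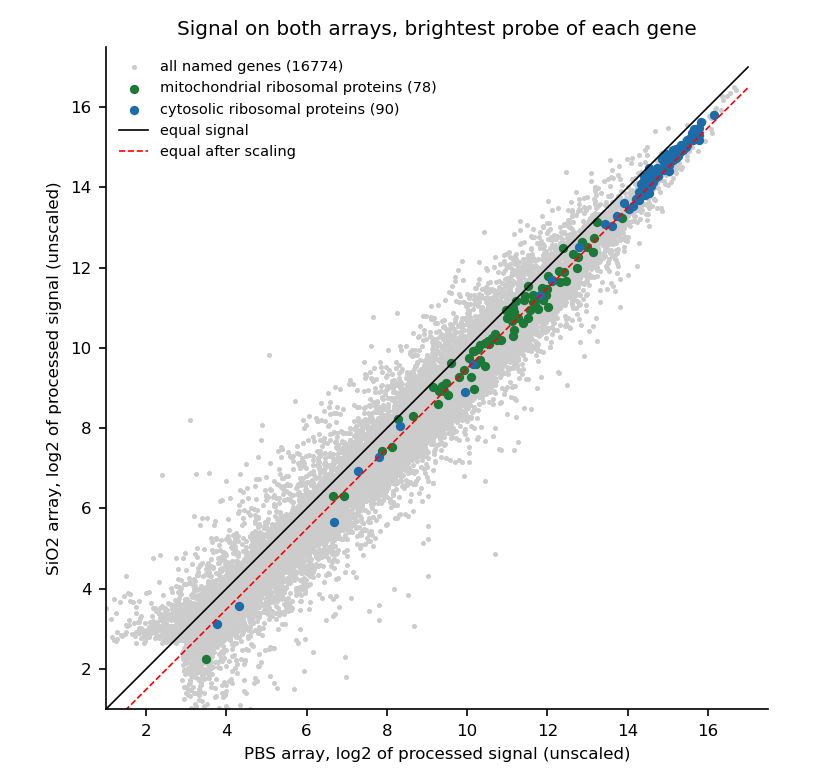
Log2 of the unscaled processed signal on the PBS array (x axis) against the SiO2 array (y axis) for the brightest probe of each named gene; grey points are all 16774 genes, blue the 90 cytosolic and green the 78 mitochondrial ribosomal protein genes. The black line marks equal signal and the red dashed line equal signal after scaling; a few grey points below the axis limits are not drawn, and the cytosolic genes follow the red line closely at the bright end.

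The spread among canonical cytosolic proteins was narrow. Their 77 log2 differences had an SD of 0.12, a range from -0.12 to 0.45 and quartiles of 0.07 and 0.26. All named genes had an SD of 0.65. Bright genes vary less, and 75 of the 77 belonged to the brightest 5% of named genes (839 genes). The median PBS signal of that group was 14046, against 33195 for the 77, so the group does not match them in signal. Genes as bright as the 77 were not compared separately. In that bright group the SD was 0.48, the median 0.08, and 16.7% differed at least 1.5-fold (11.2% higher, 5.48% lower), where none of the 77 did. At 2-fold it held 7.15% of such genes (6.08% higher, 1.07% lower). As a measure of technical spread, the difference had a median SD of 0.061 over repeated spots of 1 probe, and 0.227 at the 95th percentile of the 300 probes with at least 8 spots.

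**Figure D3:**
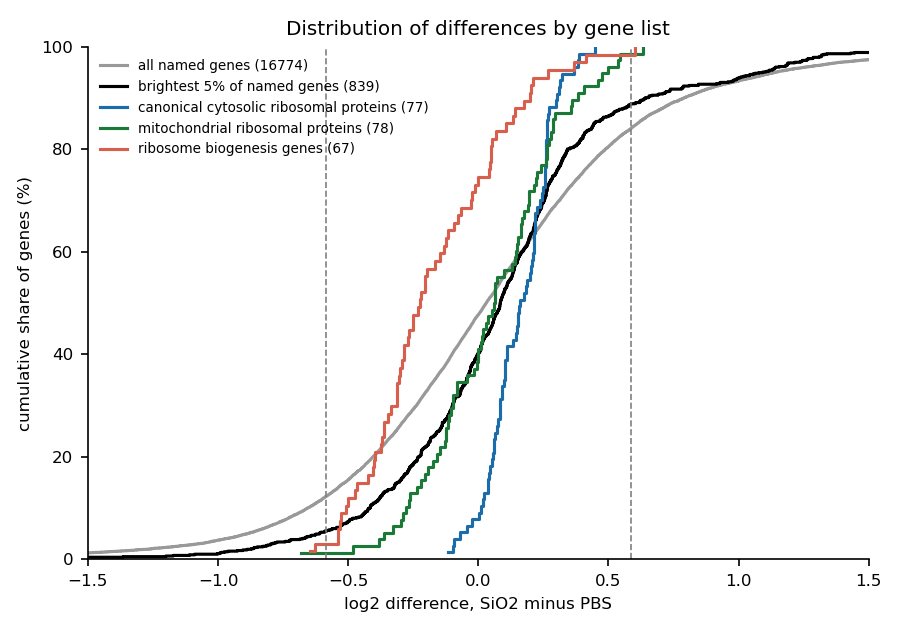
Cumulative share of genes (y axis, percent) up to each log2 difference (x axis, SiO2 minus PBS, shown from -1.5 to 1.5, which leaves out the tails of the larger groups) for all named genes, the brightest 5% of them, canonical cytosolic and mitochondrial ribosomal proteins and ribosome biogenesis genes. The steepest curve is that of the canonical cytosolic proteins, between -0.12 and 0.45, and the biogenesis curve lies to the left of it, around its median of -0.22.

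The large and small cytosolic subunits did not separate. The 46 large subunit genes had a median of 0.16 and ran from -0.09 to 0.38, and the 31 small subunit genes had a median of 0.18 and ran from -0.12 to 0.45. Rpl8, a conserved protein of the large subunit core, lay at the median of the canonical set. Its signal was 37953 in PBS and 29743 in SiO2 (log2 difference 0.16).

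Among the canonical small subunit proteins, Rps3a1 had the highest difference. Its signal was 23880 in PBS and 22865 in SiO2, a log2 difference of 0.45 or 1.37-fold. Rps24 followed, with 31777 and 29155 (0.39). On the lower side, Rps13 had a signal of 33327 in PBS and 21837 in SiO2 (-0.10). These are small differences in both directions, and that of Rps13 is smaller than the 95th percentile of the technical SD. Rpsa, the small subunit protein also known as the laminin receptor, had 32959 and 27730 (0.26).

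Among the canonical large subunit proteins, Rpl3, which reaches towards the peptidyl transferase centre, was the highest, with a signal of 21805 in PBS and 19917 in SiO2 (0.38). Rpl15 had 29781 and 26935 (0.37), and Rpl10a 51214 and 44872 (0.32). Rpl9 was the lowest, with 56338 and 37044 (-0.09), and Rpl28 had 16711 and 11353 (-0.05). The acidic stalk that draws translation factors to the ribosome is formed by Rplp0, Rplp1 and Rplp2. Rplp0 had 51631 and 43359 (0.26) and Rplp2 46912 and 37965 (0.21), whereas Rplp1 had 19856 and 13253 (-0.07). None of these differed 1.5-fold.

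The paralogues stand in for, or lie beside, a canonical protein in certain tissues. Of 8 measured paralogues, 6 were below 0, with a median of -0.09, where 8006 of all 16774 named genes were below 0. Rpl3l and Rpl10l, which are among the 6, were above 0 under normexp, so the count depends on the background correction. Rps4l, a copy of the X-linked Rps4x, had a signal of 990 in PBS and 479 in SiO2 (-0.54), where Rps4x had 20733 and 17538 (0.27). The probe of Rps4l is named by a noncoding RefSeq transcript, and whether it also reads Rps4x was not tested. Rpl39l, a paralogue best known from testis, had 102 and 50.8 (-0.49), where Rpl39 had 34400 and 26472 (0.13). The difference of Rps4l less that of Rps4x was -0.81 on the log2 scale, and between -0.81 and -0.69 under the other scalings, background correction and probe rules. For Rpl39l less Rpl39 it was -0.63, but -0.22 under normexp and -0.35 as the mean over probes. These are the only members of the cytosolic set below -0.4, and neither reached 1.5-fold, although Rps4l did under scaling by the median (-0.59).

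Rpl22l1, the paralogue of Rpl22, had a signal of 12583 in PBS and 8451 in SiO2 (-0.06), where Rpl22 had 31092 and 25847 (0.25). This gap has no settled direction, since the difference of Rpl22l1 less that of Rpl22 was -0.31 here, -0.02 as the mean over probes and 0.22 in the authors' deposited values. The brightest probe of Rpl22 was at 0.25 and its other probe at -0.33, and the authors' value of Rpl22 (-0.34) lay near the latter. Rpl36al had 17827 and 11931 (-0.07), where Rpl36a had 27101 and 22739 (0.26), a gap of -0.33 that was -0.18 as the mean over probes. Rps27l, a target of p53, and Rps27 were both at 0.24. Rpl7l1 was at 0.15 and Rpl7 at 0.22, and which of them was higher changed with the scaling. Rpl3l, a muscle paralogue, and Rpl10l, known from testis, were dim, with PBS signals of 19.9 and 13.5 and SiO2 signals of 11.9 and 8.74. Their differences of -0.23 and -0.12 turned to 0.28 and 0.40 under normexp background correction. Rpl39l was at -0.13 under normexp.

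Of the retrocopies, Rpl32l was at 0.40, Rps23rg1 at 0.24, Rps15a-ps6 at -0.02 and Rpl34-ps1 at -0.14. A probe for a processed copy can also read its near-identical parent, so these 4 values are uncertain as values of the copy. Rps19bp1 was at -0.03.

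Mitochondrial members were spread more widely around a median near 0. Their log2 differences had an SD of 0.26 and ran from -0.68 to 0.63, and 76 of 78 lay within 1.5-fold. Only 6 of the 78 belonged to the brightest 5% of named genes, and their spread was not compared with that of genes of like signal. The 49 Mrpl genes had a median of 0.01 and the 29 Mrps genes 0.13. At the median stood Mrpl22, with a signal of 2343 in PBS and 1715 in SiO2 (0.06), and Mrps21, with 8065 and 5892 (0.06). Another probe of Mrpl22 was at 0.40.

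The highest mitochondrial difference was that of Mrpl18, a large subunit protein related to the bacterial binder of 5S ribosomal RNA. Its signal was 5317 in PBS and 5776 in SiO2, a log2 difference of 0.63 or 1.55-fold. It stayed above 0 in all alternatives that measured it but fell short of 1.5-fold under median scaling (0.58) and quantile normalization (0.55). Mrpl28 had 777 and 795 (0.55), and Mrpl53 2938 and 2990 (0.54). Mrps24, of the small subunit, had 2367 and 2307 (0.48). Mrps36, which has since been assigned to the oxoglutarate dehydrogenase complex, had 1996 and 1975 (0.50). Its other probe was at 0.25, and the mean over its probes was 0.37.

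The lowest was Mrpl19, another large subunit protein. Its signal was 1156 in PBS and 505 in SiO2, a log2 difference of -0.68 or 1.60-fold lower in the SiO2 pool, and it was at least 1.5-fold lower in each of the other scalings, background correction and probe rules tried, except the one that sets lymphocyte markers to 0 (-0.37). Mrpl36, a small zinc-binding protein, had 4111 and 2064 (-0.48). Mrpl44, which carries an RNase III-like fold, had 1402 and 754 (-0.38). Mrps18b had 2272 and 1269 (-0.33). Mrpl21 had 11.3 in PBS and 4.76 in SiO2, the latter not well above background. As scaled here its difference was a bound, 1.29-fold lower or more. Under normexp it was at 0.29, so no direction is given for it.

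Subunits of the mitochondrial ribosome that do not carry an Mrp symbol were looked up afterwards. Gadd45gip1 was at 0.43, Aurkaip1 at 0.27, Dap3, a GTP-binding protein of the small subunit, at 0.24, Ptcd3 at -0.10 and Chchd1 at -0.19. These 5 fall inside the range of the Mrpl and Mrps genes.

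Members with several probes give a check within the same arrays. Of 168 members, 74 had more than 1 probe, 185 probes in all, and 1 of these probes, for Rpl31, was past 1.5-fold. The largest minus the smallest log2 difference among the probes of a gene had a median of 0.13, was at least 0.5 in 7 genes and reached 0.67 at most. All probes of a gene had the same sign in 55 of 74 genes. Since 149 of the 185 probes were above 0, many would share a sign whatever the gene, and the sign rests on the scaling. This count is therefore no check on single genes. The 7 probes of Rpl17, a large subunit protein, ran from -0.06 to 0.07.

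Probes of some genes did not give 1 value. The 3 probes of Rps24 are named in the files by 3 RefSeq transcripts. That for NM_207635 had a signal of 31777 in PBS and 29155 in SiO2 (0.39). That for NM_207634 had 21708 and 17697 (0.22). That for NM_011297 had 17601 and 10952 (-0.17), so the gene has no single direction. Rpl9, the lowest of the large subunit by its brightest probe, had another probe at 0.06, while both probes of Rps3a1 were above 0 (0.45 and 0.23). Rpl39 ran from -0.50 to 0.13, Rpl22 from -0.33 to 0.25, Mrpl50 from -0.12 to 0.55 and Mrpl41 from -0.22 to 0.36. For Rpl13a the brightest probe gave 0.06 and the other two 0.50 and 0.51. Ribosomal protein genes have many processed pseudogenes, and whether the probes differ through such copies was not tested.

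**Figure D4:**
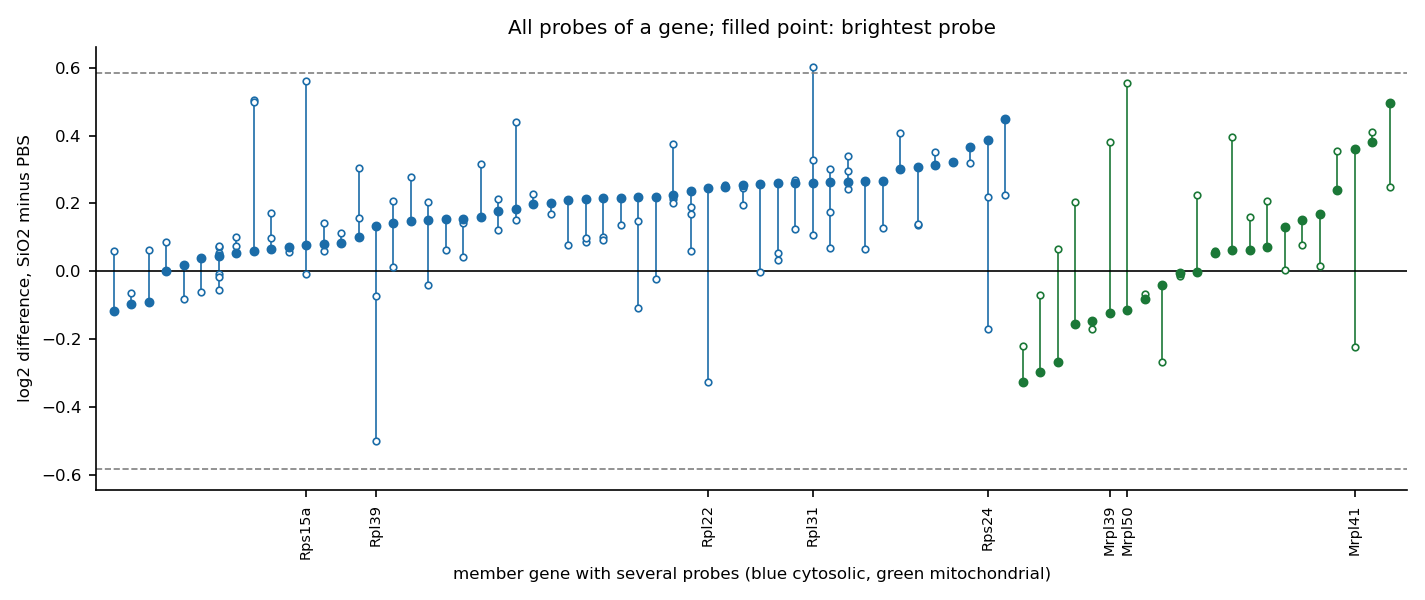
Log2 difference (SiO2 minus PBS, y axis) of all probes well above background on at least 1 array for the 74 members with several probes (x axis, cytosolic in blue, mitochondrial in green, sorted by the brightest probe; genes whose probes span at least 0.5 or pass 1.5-fold are named). Filled points are the brightest probe of a gene, open points its other probes, and dashed lines mark 1.5-fold; 1 open point, of Rpl31, lies outside them.

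Genes with and without the sequence features had overlapping differences. Canonical cytosolic genes with the pyrimidine run had a median of 0.13 (23 genes, from -0.05 to 0.39) and those without it 0.21 (34 genes, from -0.10 to 0.45). Those with the CCGGAAG core had a median of 0.16 (24 genes) and those without it 0.18 (33 genes). Mitochondrial genes with the core had a median of 0.06 (26 genes) and those without it 0.05 (43 genes).

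The genes that build cytosolic ribosomes lay lower than the genes of the proteins they assemble. Of 67 genes of ribosome biogenesis, ribosomal RNA processing and RNA polymerase I, 50 were below 0, with a median of -0.22. Among all 16774 named genes, 8006 were below 0. Of the 67, 42 lay below the lowest canonical ribosomal protein (-0.12). The share of all named genes below that mark was not counted. The lower quartile was -0.32 for all named genes and -0.36 for the 67. Just 6 of the 67 belonged to the brightest 5% of named genes, and they were not compared with genes of like signal. Only 2 of the 67 were at least 1.5-fold lower and 1 higher, smaller shares than the 12.3% and 16.0% of all named genes. Pes1, of the complex with Bop1 and Wdr12 that matures the large subunit, had a signal of 850 in PBS and 381 in SiO2 (-0.65). The mean over its probes was -0.27. Wdr12 was at -0.54 (-0.35 under normexp) and Nat10, the RNA acetyltransferase, at -0.63. Emg1, a methyltransferase of small subunit assembly, was at 0.60, Rpf1 at 0.41 (0.26 under normexp) and the kinase Riok1 at 0.37. The median of this list stayed between -0.28 and -0.17 under the other scalings, background correction and probe rules, and was 0.0858 with lymphocyte markers set to 0.

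Of 39 cytosolic translation factors, 29 were above 0, where 52.3% of all named genes were. The median of the 39 was 0.17, and none was past 1.5-fold, where 28.3% of all named genes were. The 39 factors ran from -0.51 to 0.58 with an SD of 0.26, wider than the canonical ribosomal proteins. Their median was 0.0817 after quantile normalization. The highest were Pabpc1, the poly(A)-binding protein whose message also carries a TOP motif (0.58), the ribosome recycling factor Abce1 (0.54) and Eif3i (0.44). The lowest were Eif1a (-0.51), the helicase Eif4a1 (-0.42) and Eif5b (-0.38). Eif5b was dim, with signals of 20.3 and 10.9, and was at 0.30 under normexp. Fau, which encodes a small subunit protein fused to a ubiquitin-like one and lies outside the symbol rule, was at -0.11 (-0.31 after quantile normalization). The scaffold Rack1, which sits on the small subunit, was at 0.23 (0.09 after quantile normalization). In the list that holds Fau and Rack1 with nascent chain and translocon genes, 1 of 12 was past 1.5-fold, Nacad, with signals of 20.2 and 88.6 (2.65, or 1.42 under normexp). Sec61g (0.44) and Sec61b (0.28) were next, and Rrbp1 (-0.25), Sec61a1 (-0.22) and Naca (-0.12) were lowest.

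Among 22 regulators of growth and of ribosomal protein message translation, the median was -0.01, and 2 were at least 2-fold higher and none 1.5-fold lower, where 6.62% and 12.3% of all named genes were. The MAX partner and MYC antagonist Mxd1 had a signal of 839 in PBS and 1344 in SiO2 (1.19), and Eef2k, the kinase that inhibits elongation factor 2, had 184 and 295 (1.19). Under normexp these were 0.74 and 0.98. Rps6kb2 came next at 0.55. Mycn (-0.49), Max (-0.44) and Larp1 (-0.44) were lowest, and Mycn was at -0.15 under normexp.

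For mitochondrial translation, 36 factors and tRNA synthetases had a median of -0.06, with 3 at least 1.5-fold higher and none lower, where 16.0% and 12.3% of all named genes were. The synthetases Nars2 (1.06, at signals of 8.61 and 12.6 near background) and Iars2 (0.67) were highest, and Iars2 was at 0.11 as the mean over its probes. Nars2 was at 0.53, short of 1.5-fold, under normexp. Mtfmt (-0.51), Tars2 (-0.42) and Slirp (-0.41) were lowest, and Tars2 was at -0.11 as the mean over its probes. Of 30 genes of mitochondrial ribosome assembly and mitochondrial RNA synthesis, with a median of 0.08, Mrm1, a methyltransferase of mitochondrial ribosomal RNA, was at least 1.5-fold higher (0.77). As scaled here no gene was as much lower. Mettl15 (0.57) and Mpv17l2 (0.55) followed Mrm1, and Rpusd4 (-0.57), Noa1 (-0.57) and the mitochondrial RNA polymerase Polrmt (-0.55) were lowest. Under median scaling Rpusd4 was at -0.63, Noa1 at -0.62 and Polrmt at -0.60, all past 1.5-fold. Rpusd4 (-0.59) and Noa1 (-0.61) were also past it under normexp. Rpusd4 was past it after quantile normalization and in the authors' deposited values (both -0.59).

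**Figure D5:**
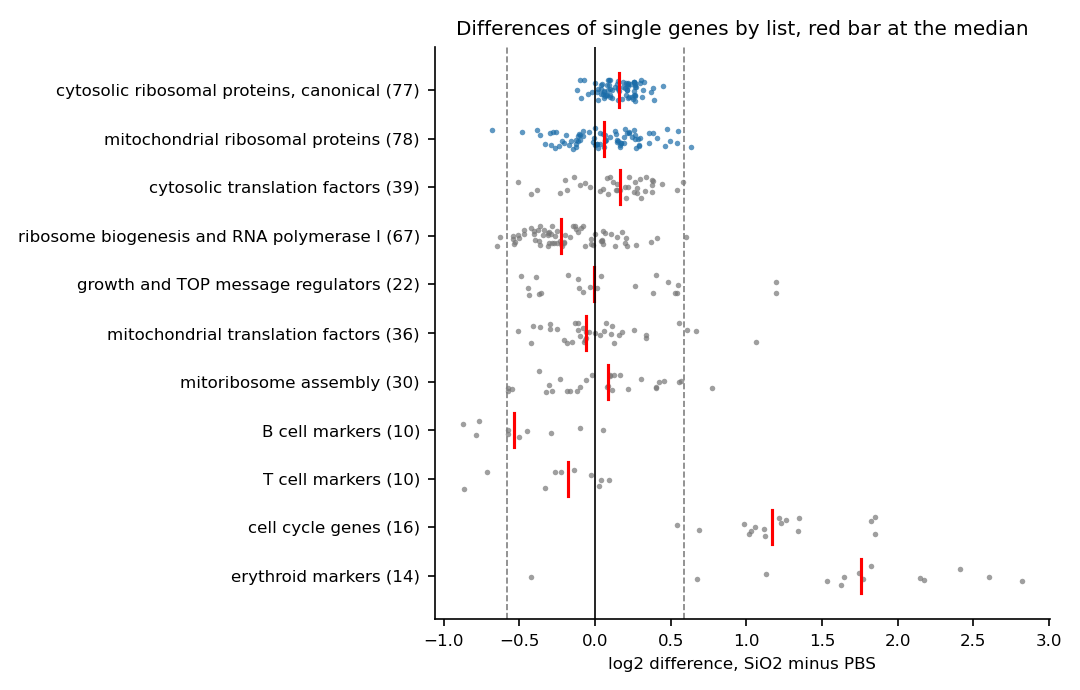
Log2 difference (SiO2 minus PBS, x axis) of each gene in the ribosomal protein sets (blue), the other translation lists and the B cell, T cell, cell cycle and erythroid lists (grey); rows are lists with their number of genes, red bars are medians, dashed lines mark 1.5-fold, and vertical scatter within a row has no meaning. The ribosomal proteins lie between the dashed lines except Mrpl18 and Mrpl19, while erythroid and cell cycle genes lie mostly to the right of them.

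Erythroid, neutrophil, cell cycle and mesothelial genes differed by more between the pools than the ribosomal protein genes, while the median of the T cell markers was near in size to that of the cytosolic set. Of 14 erythroid markers, 12 were at least 2-fold higher with SiO2, with a median of 1.76, and of 16 cell cycle genes 13 were, with a median of 1.17. Of 10 neutrophil markers, 8 were at least 2-fold higher, with a median of 2.21. The median was -0.54 for 10 B cell markers and -0.18 for 10 T cell markers, and -3.85 for 7 mesothelial markers, of which 6 were at least 2-fold lower. The unscaled signal of the B cell marker Cd79b was 19478 in PBS and 11181 in SiO2, and that of the erythroid Epb42 went from 824 to 3508. The part of these cell types in the ribosomal protein values was not tested. With the SiO2 array shifted so that the median of its lymphocyte (B and T cell) markers was 0, the cytosolic median was 0.46 and the mitochondrial median 0.37, and 24 members, 10 cytosolic and 14 mitochondrial, were at least 1.5-fold higher, beside 32.2% of all named genes under the same shift, a larger share than that of the members.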

How the data were processed

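The authors' deposited scanner files give linear spot intensity, already background-subtracted, from Agilent Feature Extraction 11.0.1.1 per the file headers (version 9.1 in the submitters' processing notes). The headers give both arrays the same scan time. A matrix of processed values deposited by the authors is on the log2 scale, with medians of 5.68 in both columns; against log2 scanner signal above background its slopes were 0.994 (PBS) and 1.01 (SiO2), so scale and sign are known and the normalization is not.

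Control and outlier-flagged spots were left out (145 on the PBS array, 148 on the SiO2 array; none was saturated), spots of a probe averaged, and each array's 75th percentile subtracted on the log2 scale. Well above background were 75.5% and 74.9% of spots. Probes were named by accession through RefSeq (GRCm38.p6, names only): 27217 of 39398 matched 1 symbol. Each gene took the value of its brightest probe among those above background in PBS, in SiO2 or in both. A value not above background was raised to the lowest value above background on that array if under it, and the difference called a bound. Genes named were the 5 highest and 5 lowest canonical cytosolic and mitochondrial members, members past 2-fold, paralogues with parents, those at the medians, the stalk genes, Rpsa and Rps19bp1, the 3 highest and lowest of each other list, and, chosen after seeing values, the retrocopies, genes whose probes disagreed, Fau and Rack1. A few genes meeting these criteria are not reported here. The members and lists were chosen with earlier results of these data known. The calculation was tested on simulated data. R 4.3.3 with limma 3.58.1, Python 3.11.15 and pandas 2.3.3 were used.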

Additional observations from a re-analysis of the deposited data

How the results depend on the processing

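The series has 1 pool per group, so nothing here measures spread between animals, and the number of arrays limits the precision. No paired analysis was possible because each group has 1 array and the labels give no replicate numbers. A median was taken as moved where it changed by more than 0.061, the median technical SD. Normexp moved the median of all genes by 0.15, the other scalings and probe rules by less than 0.1 before those chosen after seeing the data. No member was 2-fold higher or lower under any alternative, including those added later.

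After quantile normalization the medians were -0.00152 for cytosolic members, -0.015 for cytosolic minus mitochondrial, 0.0817 for translation factors, 0.0218 for fusion precursors and nascent chain factors and -0.00615 for mitochondrial ribosome assembly, with 0 mitochondrial members 1.5-fold higher. In the authors' deposited values they were -0.00102 for cytosolic members, -0.016 for mitochondrial members, 0.015 for cytosolic minus mitochondrial, -0.0845 for fusion precursors, -0.10 for regulators, -0.13 for mitochondrial translation factors and 0.00622 for mitochondrial assembly, again with 0 mitochondrial members higher (Mrpl18 has no value there). After cyclic loess they were 0.0603 for cytosolic members, 0.00816 for cytosolic minus mitochondrial, 0.11 for fusion precursors and 0.0126 for mitochondrial assembly. Median scaling left 0 mitochondrial members higher and 1 cytosolic member lower, Rps4l. With no filter and no floor 2 mitochondrial members were lower, Mrpl19 and Mrpl21. Under normexp mitochondrial translation factors had a median of 0.0254. The causes were not tested.

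Chosen after seeing the data, setting the median of B and T cell markers to 0 gave medians of 0.46 (cytosolic), 0.37 (mitochondrial), 0.48 (translation factors), 0.54 (fusion precursors), 0.0858 (biogenesis), 0.30 (regulators), 0.25 (mitochondrial translation factors) and 0.39 (mitochondrial assembly), with 10 cytosolic and 14 mitochondrial members higher and 0 mitochondrial members lower, beside 32.2% of all named genes higher and 4.85% lower. This shift is a constant for every gene. Of 43 named members, 34 kept their sign under the other scalings, background correction and probe rules that measured them and 9 did not, and none past 1.5-fold changed sign.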
